A study of Mus musculus with 6 samples.

Results

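Neat1, Malat1, Meg3, Kcnq1ot1 and Miat, long noncoding RNAs that are kept in the nucleus, were followed in primary microglia (PM) treated with LPS and the histone demethylase inhibitor GSK-J4. They were picked by symbol and account for 5 of the 24411 features in the count tables. RNA-seq libraries came from PM treated for 4-h with GSK-J4 (10 μM; 3 libraries) or with LPS (10 ng/ml) together with GSK-J4 (10 μM; 3 libraries). Both groups therefore carried GSK-J4, which inhibits the H3K27 demethylase JMJD3, and the comparison measured the response to LPS, a bacterial ligand of the receptor TLR4, in cells that all carried the inhibitor. PM were shaken off mixed glial cultures that had grown for 2 weeks from the pooled whole brains of 12 ICR mice, 3 days old. Untreated PM, PM given LPS alone and the BV-2 cell line were not analysed here. The replicates are described by the study as independent RNA samples, and nothing in the labels ties them to separate pools of animals, so the p values measure the spread between these libraries.

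Long nuclear RNAs act as RNA molecules and are not translated into protein. Neat1 is the scaffold of paraspeckles, nuclear bodies that assemble on it and hold RNA-binding proteins such as Sfpq and Nono. Malat1 is transcribed from the adjacent gene and lies in nuclear speckles, which are rich in splicing factors. Meg3 and Kcnq1ot1 belong to imprinted domains: Meg3 is expressed from the maternal chromosome in the Dlk1-Dio3 domain, and Kcnq1ot1 is expressed from the paternal chromosome, where it silences neighbouring genes. Miat (also called Gomafu) is best known from neurons.

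All positions are those of the GENCODE annotation of mm10. Neat1 (ENSMUSG00000092274.3) lay on the minus strand at chr19:5824708-5845478, and Malat1 (ENSMUSG00000092341.3) lay on the same strand at chr19:5795690-5802672, 22036 bp away. Meg3 (ENSMUSG00000021268.17) was on the plus strand at chr12:109541001-109571726. Kcnq1ot1 (ENSMUSG00000101609.2), on the minus strand at chr7:143203458-143296549, is antisense to the protein-coding gene Kcnq1 and lies within it. Miat (ENSMUSG00000097767.8) was on the minus strand at chr5:112213228-112229395.

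The adjacent RNAs Neat1 and Malat1 share an unusual 3′ end, which is shown because it is the sequence that sets them apart from most transcripts. Neither long transcript keeps a poly(A) tail added in the usual way, and U-rich sequence folds onto an A-rich tract into a triple helix that protects the end. The sequences below are written 5′ to 3′ with T for U from the GENCODE transcripts. Capitals mark the parts of a U-rich and an A-rich element that read the same in both RNAs. These parts are reverse complements of each other and do not cover the whole triple helix. The Malat1 stretch covers chr19:5795982-5796027 (minus strand, mm10) and the Neat1 stretch covers chr19:5824708-5824760 (minus strand, mm10). In Malat1 26 bases lay between the parts in capitals, and in Neat1 33 bases did. The Malat1 bases end in a run of A that continues the A-rich element, so these counts are not distances between whole elements.
Malat1: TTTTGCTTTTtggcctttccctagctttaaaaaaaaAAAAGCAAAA
Neat1: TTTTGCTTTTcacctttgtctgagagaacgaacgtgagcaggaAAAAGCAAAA
The A-rich element closed the annotated Neat1 transcript. In Malat1 it was followed with no gap by Mascrna, the small tRNA-like RNA that RNase P and RNase Z release when they cut the primary transcript. Mascrna spans 58 bases at chr19:5795924-5795981 (minus strand, mm10), and 0 features of the count tables carried its name.
Mascrna: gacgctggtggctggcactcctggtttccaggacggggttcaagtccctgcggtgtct

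Promoter windows of RefSeq (GRCm38.p6, from 250 bases before to 50 bases after a start) were found for 4 of the 5 RNAs, and Neat1 was not among them. Meg3 and Malat1 are shown because Meg3 rose in LPS + GSK-J4 and Malat1 did not pass the test. The Meg3 window is chr12:109540746-109541045 (plus strand) and the Malat1 window is chr19:5802623-5802922 (minus strand). Capitals mark the match to a searched motif, here ACGTG, the core of the hypoxia response element.
Meg3: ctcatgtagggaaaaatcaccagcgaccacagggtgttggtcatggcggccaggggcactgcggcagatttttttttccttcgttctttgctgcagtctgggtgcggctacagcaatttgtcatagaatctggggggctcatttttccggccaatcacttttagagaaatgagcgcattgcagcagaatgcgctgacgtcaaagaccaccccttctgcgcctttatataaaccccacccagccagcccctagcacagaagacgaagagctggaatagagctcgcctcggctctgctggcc
Malat1: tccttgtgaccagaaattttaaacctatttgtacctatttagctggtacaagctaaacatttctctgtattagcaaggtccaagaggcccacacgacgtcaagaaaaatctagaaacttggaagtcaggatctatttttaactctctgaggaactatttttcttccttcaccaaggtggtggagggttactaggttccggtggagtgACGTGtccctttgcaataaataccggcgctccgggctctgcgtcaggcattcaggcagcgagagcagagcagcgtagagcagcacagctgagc
Motifs were searched on both strands. A strict and a loose form of the kappa B motif, the first being contained in the second, were in 0.411% and 20.7% of the 32851 windows of the table. The interferon response motif was in 3.44%, TTCNNNGAA (GAS) in 8.30%, TGANTCA (AP-1) in 7.81% and ACGTG in 19.6% of them. In the windows of the members, ACGTG matched at 1 place for Malat1 and at 2 places for Kcnq1ot1. None of these motifs occurred in either window of Meg3 or in that of Miat, which says only that they are not in these 300 bases.

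Between 2597505 and 3472716 fragments were counted on genes per library. The ribosomal RNA precursor Rn45s took from 22.2 to 32.4% of them in GSK-J4 and from 45.8 to 48.1% in LPS + GSK-J4. Outside ribosomal features, from 1374377 to 2443344 counts remained. Levels are given as CPM, counts scaled to a common library size with TMM factors. This scaling sets aside extreme features such as Rn45s. A level of 3 counts, used as the lower limit of measurement, equalled 0.673 to 1.24 CPM. The replicates numbered 3 stood somewhat apart: the chi-square statistic per degree of freedom between libraries of a group was 2.12 and 2.32 for replicates 1 and 2 and at least 5.81 for pairs with replicate 3. Microglial markers summed to 3178 to 3300 CPM with GSK-J4 alone and to 2574 to 2628 CPM with LPS + GSK-J4, and all 10 were detected.

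Of the 5 RNAs, Neat1 and Meg3 rose with LPS in the presence of GSK-J4, by 1.85-fold and 2.30-fold. For Malat1 and Kcnq1ot1 the groups overlapped and the difference did not pass the test, and Miat was too low to test. The test was the quasi-likelihood test of edgeR with Benjamini-Hochberg adjustment over 10133 genes, and a gene is said to rise or fall at an adjusted p of at most 0.05. Under this rule 2 of the 4 members that were tested rose and 0 fell, as was so by DESeq2 and at an unadjusted p under 0.05, whereas 13.7% of all genes tested rose and 9.91% fell. With library totals in place of TMM, 0 of the 4 rose and 2 fell, while 573 of the 10133 genes rose and 5019 fell. With the stricter thresholds of the study, which ask for 0.01 on the adjusted p and for a log2 change of 1.5 or more in size, 0 members were called, beside 2.95% of genes in the higher and 0.809% in the lower direction. By edgeR the changes of Neat1 and Meg3 met that limit on p but were smaller than the limit on fold change. By DESeq2, the test that the study used, Meg3 missed the limit on p as well (log2 fold change 1.16; DESeq2, adjusted p = 0.0165).

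**Figure D1:**
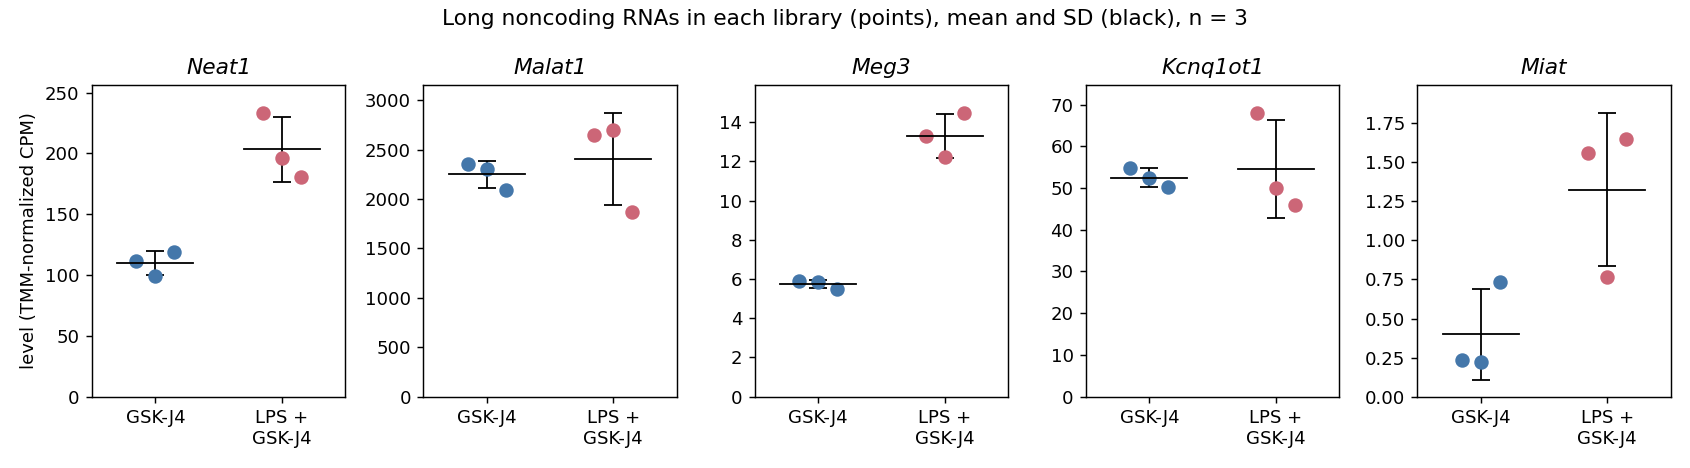
Level of each long noncoding RNA (TMM-normalized CPM, linear axes from 0, a scale for each gene) in the 3 GSK-J4 and 3 LPS + GSK-J4 libraries, with points for libraries and black lines for the mean and SD. Neat1 and Meg3 lie higher in every LPS + GSK-J4 library, whereas Malat1 and Kcnq1ot1 overlap and Miat stays at 1.65 CPM or less.

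Neat1, the scaffold of paraspeckles, was counted 473, 441 and 325 times in replicates 1, 2 and 3 of GSK-J4, and 597, 515 and 437 times in those of LPS + GSK-J4. Its level was 112, 99.0 and 119 CPM in the GSK-J4 libraries and 233, 197 and 180 CPM in the LPS + GSK-J4 libraries. Every LPS + GSK-J4 library was thus above every GSK-J4 library, as was so for 19.8% of all genes tested. The mean level of Neat1 went from 110 CPM ± 10.2 to 203 CPM ± 26.9 (SD, n = 3). The log2 fold change was 0.89 with a standard error of 0.13 (edgeR, adjusted p = 0.000116). This is 1.85-fold, with an approximate 95% confidence interval from 1.55 to 2.22. When each library was left out in turn, the log2 fold change stayed between 0.78 and 0.97 and the adjusted p reached at most 0.00153.

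Fragments were counted by gene, over a Neat1 model whose extent is not given in the sources used here. The long form of the RNA, which builds paraspeckles, and the short form, which is polyadenylated and lies inside the first part of the long one, therefore cannot be told apart. The nearest counted gene above Neat1, Frmd8, also lies on the minus strand, with its 3′ end 4224 bp from the start of Neat1. Frmd8 gave from 37.7 to 48.0 CPM in GSK-J4 and from 39.8 to 54.5 CPM in LPS + GSK-J4, and its log2 fold change of 0.10 did not pass the test (edgeR, adjusted p = 0.736). Fragments on the strand opposite to Neat1 came to 12 in the GSK-J4 libraries and 8 in the LPS + GSK-J4 libraries.

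Malat1, the RNA of nuclear speckles, was the most abundant of the 5. It was counted 9973, 10266 and 5705 times in GSK-J4 and 6789, 7063 and 4528 times in LPS + GSK-J4, and it took from 0.329 to 0.489% of the counts outside ribosomal features. Among all features it ranked 16, 17 and 17 in the GSK-J4 libraries and 17, 16 and 21 in the LPS + GSK-J4 libraries. Its level was 2353, 2304 and 2092 CPM in GSK-J4 and 2650, 2695 and 1870 CPM in LPS + GSK-J4. LPS + GSK-J4 libraries 1 and 2 were above all of the GSK-J4 libraries, and LPS + GSK-J4 library 3 was below them all. The means were 2250 ± 139 and 2405 ± 464 CPM (SD, n = 3).

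The log2 fold change of Malat1 was 0.10 with a standard error of 0.13 (edgeR, adjusted p = 0.649), and its 95% interval ran from −0.16 to 0.35. This interval leaves room for a level 0.897-fold to 1.27-fold that of GSK-J4 and does not show that the levels were equal. One library decided the call: without LPS + GSK-J4 replicate 3 Malat1 rose by 0.25 on the log2 scale (edgeR, adjusted p = 0.0493), and without replicate 3 of both groups, which was chosen after seeing the data, it rose by 0.21 (edgeR, adjusted p = 0.0258). With those libraries left out 3 of the 4 tested members rose.

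Since Neat1 and Malat1 are neighbours on the same strand, their counts were also compared inside each library, where no scaling enters. Neat1 counts were 4.74, 4.30 and 5.70% of Malat1 counts in replicates 1, 2 and 3 of GSK-J4, and 8.79, 7.29 and 9.65% in those of LPS + GSK-J4. The groups did not overlap, with means of 4.91% ± 0.716 and 8.58% ± 1.19 (SD, n = 3). The ratio was 1.75-fold higher in LPS + GSK-J4 (log2 difference 0.80; 2-sided exact permutation test, p = 0.1, the smallest that 3 libraries against 3 can give). A ratio shows that the RNAs changed unequally, not that Malat1 stayed the same.

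Ratios of the other members to Malat1 were added after their values were seen. Meg3 counts were 0.251, 0.253 and 0.263% of Malat1 counts in GSK-J4 and 0.501, 0.453 and 0.773% in LPS + GSK-J4. This is 2.19-fold higher, again with no overlap and with p = 0.1 in the 2-sided exact permutation test. Kcnq1ot1 counts were 2.33, 2.27 and 2.40% of Malat1 counts in GSK-J4 and 2.56, 1.85 and 2.45% in LPS + GSK-J4. For Kcnq1ot1 the groups overlapped, and the log2 difference was −0.04.

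**Figure D2:**
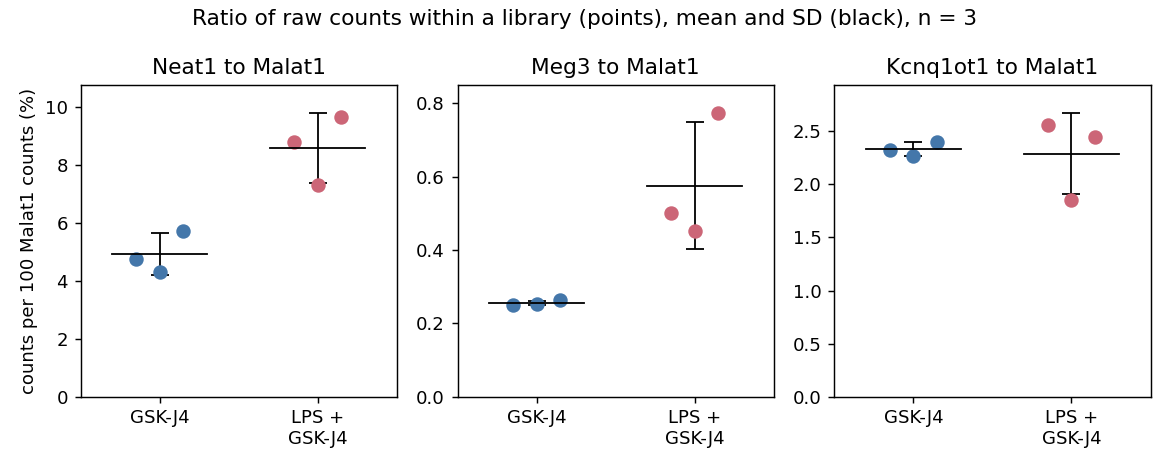
Counts of Neat1, Meg3 and Kcnq1ot1 as a percentage of Malat1 counts in the same library (linear axes from 0), with points for the 3 libraries of each group and black lines for the mean and SD. Neat1 lies between 4.30 and 5.70% with GSK-J4 alone and between 7.29 and 9.65% with LPS added, and Kcnq1ot1 overlaps between the groups.

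Meg3, the maternally expressed RNA of the Dlk1-Dio3 domain, was a low transcript that rose in LPS + GSK-J4. It was counted 25, 26 and 15 times in GSK-J4 and 34, 32 and 35 times in LPS + GSK-J4. In CPM this is 5.90, 5.84 and 5.50 in GSK-J4 and 13.3, 12.2 and 14.5 in LPS + GSK-J4. The lowest LPS + GSK-J4 library was above the highest GSK-J4 library, with means of 5.74 ± 0.214 and 13.3 ± 1.12 CPM (SD, n = 3). The log2 fold change was 1.20 with a standard error of 0.25 (edgeR, adjusted p = 0.00226), or 2.30-fold with a 95% interval from 1.63 to 3.23. The call held without each library in turn, with an adjusted p between 0.00425 and 0.0123. Antisense fragments numbered 0 with GSK-J4 alone and 3 with LPS added, and the microRNA genes Mir770 and Mir1906-1 inside Meg3 and Mir673, 264 bp beyond it, had 0 counts in every library.

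Kcnq1ot1, the paternally expressed antisense RNA of the Kcnq1 domain, was counted 232, 233 and 137 times in GSK-J4 and 174, 131 and 111 times in LPS + GSK-J4. Its level was 54.7, 52.3 and 50.2 CPM in GSK-J4 and 67.9, 49.99 and 45.8 CPM in LPS + GSK-J4. The LPS + GSK-J4 libraries lay on both sides of the GSK-J4 libraries, with means of 52.4 ± 2.26 and 54.6 ± 11.7 CPM (SD, n = 3). The log2 fold change of 0.06 had a standard error of 0.16 (edgeR, adjusted p = 0.842), and its interval allowed from 0.837-fold to 1.29-fold. Without LPS + GSK-J4 replicate 1 it became −0.13 (edgeR, adjusted p = 0.616).

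Kcnq1, the potassium channel gene that holds Kcnq1ot1 on its opposite strand, had 0, 2 and 0 counts in GSK-J4 and 0, 1 and 2 counts in LPS + GSK-J4. The antisense column of Kcnq1ot1 held 2 fragments over the GSK-J4 libraries and 12 over the LPS + GSK-J4 libraries. Kcnq1ot1 was therefore counted far above the gene it overlaps. The nearest genes outside this overlap, 4933417O13Rik and Trpm5, had 0 counts in every library except for 2 counts of Trpm5 in LPS + GSK-J4 replicate 3.

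Miat, the RNA known from neurons, had 1, 1 and 2 counts in GSK-J4 and 4, 2 and 4 counts in LPS + GSK-J4, at or near the lower limit of 3 counts. The summed counts were 4 (95% Poisson interval, counting error only, 1.09 to 10.2) and 10 (4.80 to 18.4). Its CPM values were 0.236, 0.224 and 0.733 in GSK-J4 and 1.56, 0.763 and 1.65 in LPS + GSK-J4. The highest GSK-J4 value, 0.733, nearly met the lowest LPS + GSK-J4 value, 0.763, although the groups did not overlap. Miat was removed by the filter on low counts, so the values above are a description, and a change was not detectable at this depth.

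Set against each other per kb of annotated exon, the members differed widely in level. The lengths are those of GENCODE and may not match the gene models used for counting, on which every value per kb and the order of Meg3 and Kcnq1ot1 depend. In GSK-J4 Malat1 stood at 322 ± 19.9 CPM per kb, Neat1 at 5.29 ± 0.491, Kcnq1ot1 at 0.563 ± 0.0242, Meg3 at 0.318 ± 0.0119 and Miat at 0.0428 ± 0.0313 (SD, n = 3). In LPS + GSK-J4 the values were 344 ± 66.4 for Malat1, 9.79 ± 1.30 for Neat1, 0.736 ± 0.0620 for Meg3, 0.586 ± 0.126 for Kcnq1ot1 and 0.143 ± 0.0526 for Miat. Meg3 was thus below Kcnq1ot1 in each GSK-J4 library and above it in each LPS + GSK-J4 library, where its range from 0.675 to 0.799 overlapped that of Kcnq1ot1 from 0.492 to 0.729, so these neighbours did not differ beyond their spread. All other neighbours in the order were separate in both groups. Over 3004 bp, the length of its short transcript, the level of Neat1 would be 36.6 ± 3.39 and 67.7 ± 8.96 CPM per kb, which leaves the order as it is.

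The proteins of the paraspeckle were measured next to their RNA scaffold, from a list of 25 genes that all passed the filter. By edgeR 0 of them rose and 0 fell (adjusted p of at most 0.05), beside 13.7% and 9.91% of all genes tested. By DESeq2 0 of the list rose and 0 fell as well, and 2 were higher and 0 lower at an unadjusted p under 0.05. Their median log2 fold change was −0.02, beside 0.00 over all genes tested. Sfpq, which binds Neat1 and is needed for paraspeckles, had a log2 fold change of 0.07. Its partner Nono was at −0.09 and Pspc1 was at 0.04. Fam98a was highest of the list at 0.78 (edgeR, adjusted p = 0.118). Neat1 therefore rose by 0.89 while the transcripts of its listed partners lay between −0.34 and 0.78 with none past the test. With library totals in place of TMM, which moved the median of all genes by −0.57, 13 of the 25 fell, at a list median of −0.59. Under that scaling 5019 of all 10133 genes tested fell.

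Nuclear speckle and splicing genes, the compartment of Malat1, were represented by 24 genes, of which 23 were tested. Their median log2 fold change was 0.10, with 1 that rose and 2 that fell by edgeR, beside 13.7% and 9.91% of all genes tested. By DESeq2 0 of the list rose and 3 fell. The additional fall was that of Srsf2, an SR splicing factor named after its values were seen, at −0.36 by edgeR (adjusted p = 0.0528) with an adjusted p of 0.0379 by DESeq2 and of 0.0459 with DESeq2 size factors in edgeR. Clk1 and Clk4, kinases that phosphorylate SR splicing factors, fell. Clk1 was at 92.7, 94.3 and 66.4 CPM in GSK-J4 and at 52.3, 51.9 and 34.3 CPM in LPS + GSK-J4 (log2 fold change −0.88, standard error 0.18; edgeR, adjusted p = 0.00198). Clk4 was at 34.4, 32.3 and 29.3 CPM in GSK-J4 and at 14.8, 16.0 and 12.4 CPM in LPS + GSK-J4 (−1.15, standard error 0.19; edgeR, adjusted p = 0.000305). Both kinases kept their direction and their call under every alternative scaling, test and left-out library. U2af2, which recognises the polypyrimidine tract, rose by 0.46 (edgeR, adjusted p = 0.0383), but it was at −0.10 with library totals in place of TMM and its adjusted p was 0.106 by DESeq2. Without GSK-J4 replicate 1 or 2 or LPS + GSK-J4 replicate 1 or 3 its adjusted p was between 0.0592 and 0.182. With library totals 14 of the list fell, as did 5019 of all 10133 genes tested. The scaffold proteins Son and Srrm2 were at −0.02 and 0.10.

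The machinery that forms the 3′ ends shown above was followed through 12 genes for RNase P subunits, the RNase Z enzyme Elac2 and the triple-helix-binding protein Mettl16. With 10 of them tested, 0 rose and 1 fell by edgeR, beside 13.7% and 9.91% of all genes tested. By DESeq2 0 of the list rose and 0 fell, and the list median by edgeR was 0.12. At an unadjusted p under 0.05, 1 was higher and 1 lower. Elac2 was at 0.12 and Mettl16 at −0.28, neither past the test. Rpp38, an RNase P subunit, fell by 1.23 on the log2 scale (edgeR, adjusted p = 0.0360), on 57 counts over the GSK-J4 libraries and 16 over the LPS + GSK-J4 libraries. This call was lost without any of the 6 libraries in turn (adjusted p from 0.0590 to 0.120) and by DESeq2 (adjusted p = 0.170).

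Rian and Dlk1 of the imprinted domain of Meg3 also rose, but the call of Dlk1 depended on the test, the scaling and single libraries. Among 17 genes listed as imprinted in the Dlk1-Dio3 and Kcnq1 domains, 6 passed the filter, 5 rose and 0 fell. The median log2 fold change of the 6 was 0.68, and 13.7% of all genes tested rose. The other genes of the list that rose, Osbpl5, Nap1l4 and Cd81, belong to the Kcnq1 domain, whose member Kcnq1ot1 did not pass the test. Whether the listed genes are imprinted in these cells was not tested. The share of the list that rose is of the genes that were high enough to test, and the other 11 had too few counts. Rian, the next maternally expressed noncoding RNA of the Dlk1-Dio3 domain, was counted 38, 35 and 15 times in GSK-J4 and 57, 58 and 41 times in LPS + GSK-J4. Its level was 8.97, 7.86 and 5.50 CPM in GSK-J4 and 22.2, 22.1 and 16.9 CPM in LPS + GSK-J4, without overlap (log2 fold change 1.42, standard error 0.24; edgeR, adjusted p = 0.000390). Mirg, also in this domain, had from 0 to 2 counts in each library.

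Dlk1, the paternally expressed coding gene at the other end of the domain and the nearest counted gene below Meg3 (77665 bp), was at 8.97, 6.29 and 5.50 CPM in GSK-J4 and at 15.6, 8.39 and 16.5 CPM in LPS + GSK-J4. These groups overlapped, and its log2 fold change of 0.93 (edgeR, adjusted p = 0.0331) lost its call without GSK-J4 replicate 2 or 3 or LPS + GSK-J4 replicate 1 or 3 (adjusted p from 0.0827 to 0.116) and by DESeq2 (adjusted p = 0.110). With library totals in place of TMM it was at 0.36 (edgeR, adjusted p = 0.323). Dlk1 is expressed from the opposite parental chromosome to Meg3, and counts by gene do not separate the parental alleles.

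In the Kcnq1 domain, Osbpl5, an oxysterol-binding-protein relative involved in lipid transfer, went from 7.31, 8.75 and 12.1 CPM to 16.8, 29.4 and 37.6 CPM (log2 fold change 1.60, standard error 0.28; edgeR, adjusted p = 0.000553). Nap1l4, a histone chaperone, rose by 0.43 (edgeR, adjusted p = 0.0242) and the tetraspanin Cd81 by 0.39 (edgeR, adjusted p = 0.0251). With library totals in place of TMM both flipped, to −0.13 and −0.17, and by DESeq2 their adjusted p was 0.103 and 0.0683. Without GSK-J4 replicate 1 or 2 or LPS + GSK-J4 replicate 2 neither was called, with an adjusted p from 0.0635 to 0.104 for Nap1l4 and from 0.0559 to 0.152 for Cd81. By DESeq2, Rian and Osbpl5 were the genes of this list still called. Without GSK-J4 replicate 2 the list had 2 genes that rose in place of 5, and without GSK-J4 replicate 1 or LPS + GSK-J4 replicate 2 it had 3. Cdkn1c, a cell cycle inhibitor that Kcnq1ot1 silences in other tissues, had from 0 to 2 counts in each library.

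**Figure D3:**
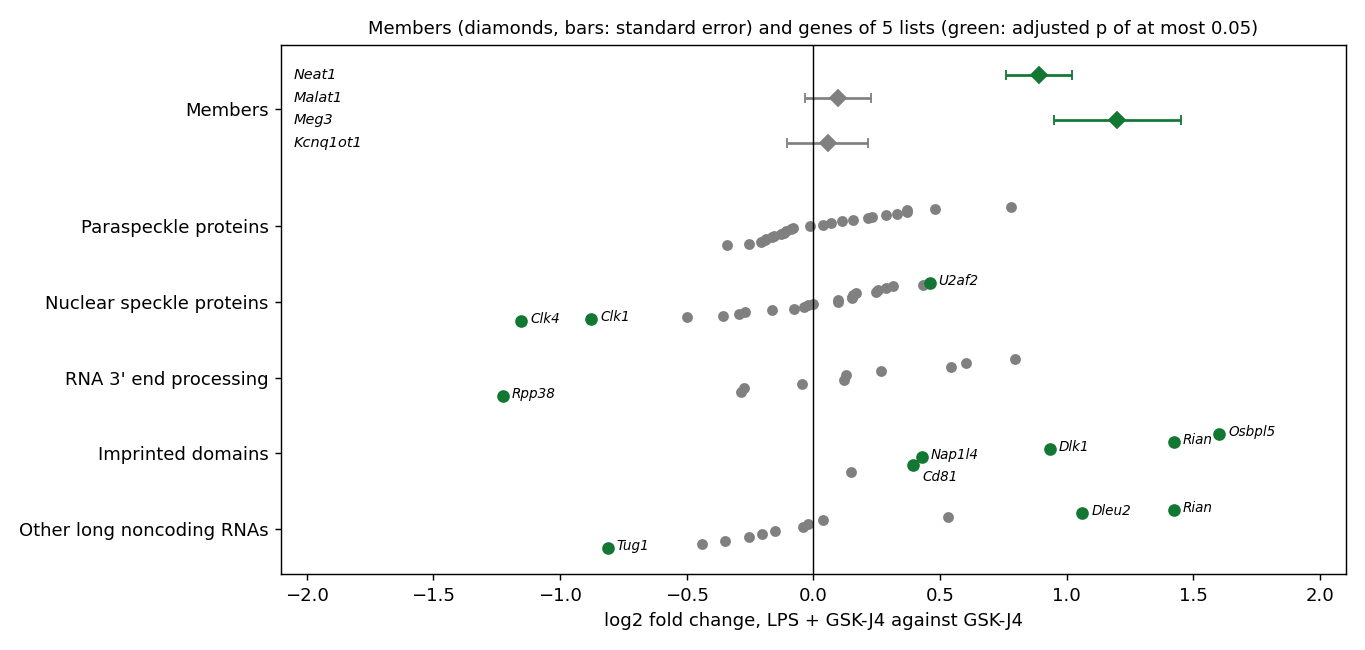
Log2 fold change of LPS + GSK-J4 against GSK-J4 for the 4 members that were tested (diamonds, bars for the standard error) and for the tested genes of 5 lists (points), in green where the adjusted p was at most 0.05. Neat1 at 0.89 and Meg3 at 1.20 stand to the right, the paraspeckle proteins have no green point, and Rian appears in 2 lists.

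A list of other long noncoding RNAs was read beside the members. From this list of 22, 21 matched the tables and 12 were tested, of which 2 rose and 1 fell, with a median log2 fold change of −0.10. These counts are near the shares of all genes tested, of which 13.7% rose and 9.91% fell, and set the list apart in neither direction. The fall was that of Tug1, a widely expressed RNA, from 140, 160 and 110.0 CPM in GSK-J4 to 100.3, 68.3 and 65.7 CPM in LPS + GSK-J4 (−0.81, standard error 0.17; edgeR, adjusted p = 0.00268). Tug1 kept this call under every alternative scaling, test, filter on low counts and left-out library. With library totals 6 of the list fell and 1 rose, beside 5019 and 573 of all 10133 genes tested. Beside Rian, Dleu2 rose by 1.06 (edgeR, adjusted p = 0.0126), but its adjusted p was 0.0643 by DESeq2 and 0.160 with library totals. Without GSK-J4 replicate 1 or LPS + GSK-J4 replicate 1 it was 0.0628 and 0.0649. Xist, the RNA that coats the inactive X chromosome, was at −0.20 (edgeR, adjusted p = 0.265), and Gas5 was at −0.15 (edgeR, adjusted p = 0.714). With Neat1, Meg3, Rian and Dleu2 higher and Tug1 lower, the long noncoding RNAs that were called did not all share a direction, as genes in general did not.

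Summed markers of neurons, astrocytes and the oligodendrocyte lineage were higher in LPS + GSK-J4, as Neat1 and Meg3 were. The numbers of markers called stand beside 13.7% of all genes tested that rose and 9.91% that fell. Summed neuronal markers ranged from 22.4 to 28.2 CPM in GSK-J4 and from 56.2 to 69.1 CPM in LPS + GSK-J4. Of 10 such genes 4 were tested and 4 rose, Map2 by 1.07, Tubb3 by 1.38, Stmn2 by 1.52 and Gad1 by 1.93 on the log2 scale (edgeR, adjusted p from 0.000743 to 0.00272). Gad1 had 5, 14 and 6 counts in GSK-J4 and 28, 19 and 17 in LPS + GSK-J4. It thus passed the filter on low counts through the group where it was higher. The defining neuronal genes Rbfox3, Snap25, Syt1, Nefl and Slc17a7 had from 0 to 5 counts in each library, and Gap43 had from 5 to 13. With library totals in place of TMM, Map2 no longer passed (edgeR, adjusted p = 0.0781).

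Summed astrocyte markers ranged from 53.9 to 59.4 CPM in GSK-J4 and from 131 to 159 CPM in LPS + GSK-J4, and 3 of 7 tested rose (Gfap, Aqp4 and Gja1). The other 4 did not pass, among them Slc1a3 at 0.69 (edgeR, adjusted p = 0.260) and Aldh1l1, which was lower at −0.16 (edgeR, adjusted p = 0.864). Oligodendrocyte lineage markers ranged from 182 to 212 and from 352 to 402 CPM, and 4 of 6 rose, among them Mbp, Cspg4 and Olig1, of which Mbp was lost with library totals (edgeR, adjusted p = 0.752). Mesenchymal and vessel markers ranged from 91.4 to 298 and from 156 to 482 CPM, with 1 of 7 that rose (Cdh5) and Cldn5 at 0 in every library. With the replicate number added to the fit, Cdh5 was no longer called (edgeR, adjusted p = 0.0813). The vessel gene Pecam1 had 12 counts over the GSK-J4 libraries and 6 over the LPS + GSK-J4 libraries. Microglial markers had 3 of 10 that fell (Csf1r, Cx3cr1 and Trem2) and 0 that rose. In these bulk libraries fewer cells of a type and less RNA per cell cannot be told apart. The part of other cells in the rise of Neat1, Meg3, Rian and the other genes of the imprinted domains was not tested.

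**Figure D4:**
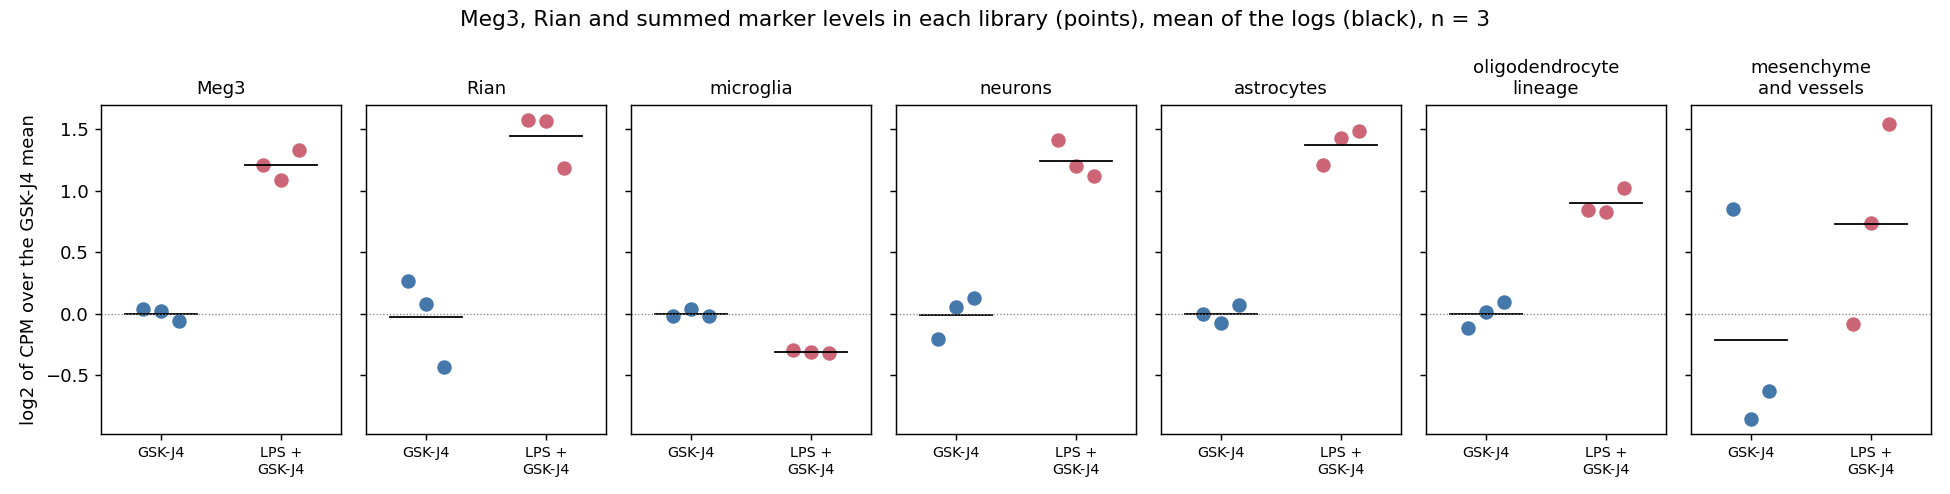
Log2 of the CPM of Meg3, of Rian and of the summed markers of 5 cell types over the mean of the GSK-J4 libraries (dotted line at 0), with points for the 3 libraries of each group and a black line for the mean of the logs. Meg3, Rian and the neuronal, astrocyte and oligodendrocyte lineage sums are higher in every LPS + GSK-J4 library, and the microglial sum is lower.

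The calls of all 4 tested members depended on the scaling. With library totals in place of TMM, Neat1 stood at 0.33 (edgeR, adjusted p = 0.0868) and Meg3 at 0.63 (edgeR, adjusted p = 0.0673), both no longer called. Malat1 at −0.47 (edgeR, adjusted p = 0.0177) and Kcnq1ot1 at −0.51 (edgeR, adjusted p = 0.0267) turned into genes that fell. Under this scaling 5019 of the 10133 genes tested fell, and the median of all genes was shifted down. Relative to that shifted median, Neat1 was 0.90, Malat1 0.09, Meg3 1.20 and Kcnq1ot1 0.05 higher. Leaving out Rn45s, Mir6236 and Lars2 before TMM scaling gave 0.89 for Neat1 and 1.20 for Meg3. That setting kept TMM, which already sets such features aside, and library totals without these features were not tried.

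**Figure D5:**
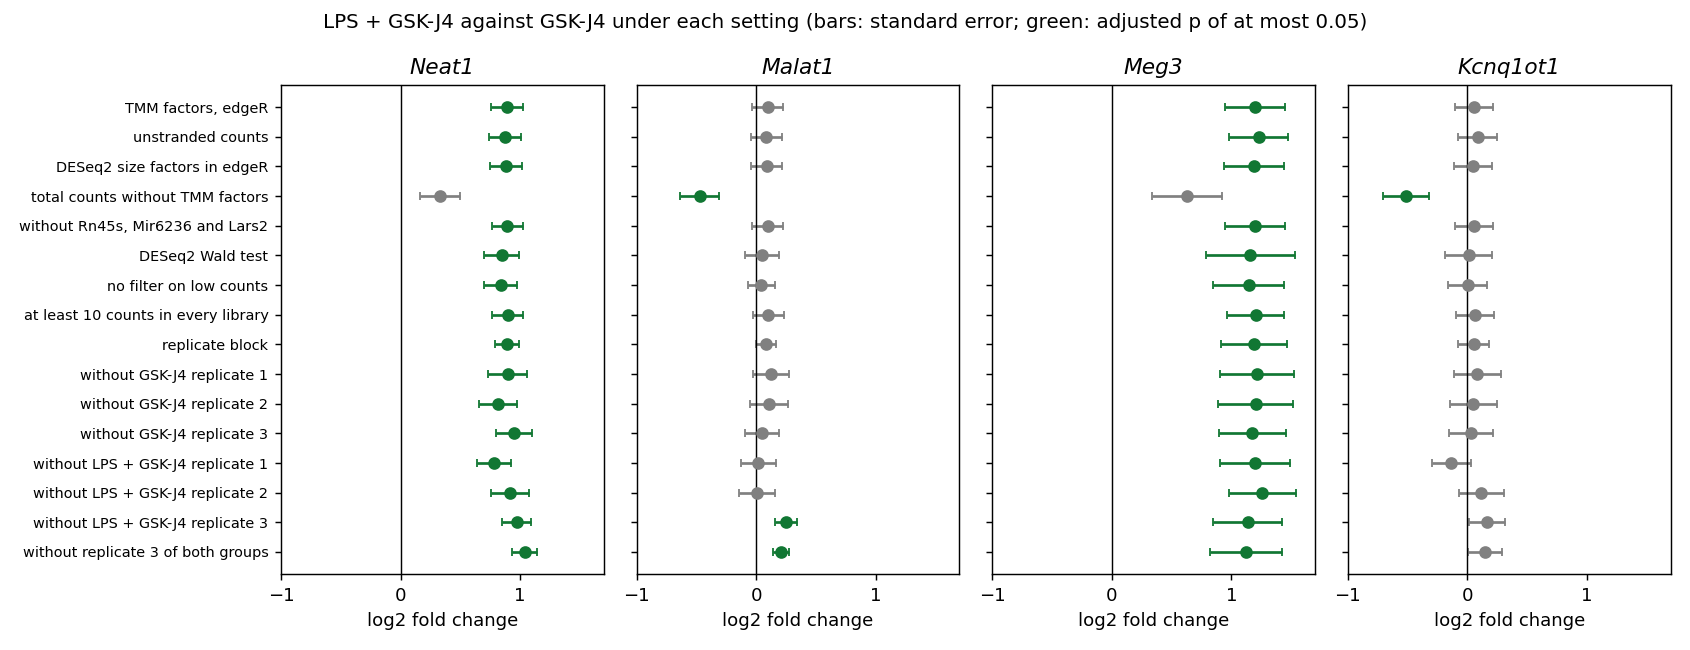
Log2 fold change of LPS + GSK-J4 against GSK-J4 for the 4 tested members under each setting (rows), with bars for the standard error and green where the adjusted p was at most 0.05. Library totals without TMM factors move all 4 members to the left, and Malat1 turns green on the positive side without LPS + GSK-J4 replicate 3.

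The genes whose levels followed each member most closely were ranked by Pearson r of log2(CPM + 1) over the 6 libraries, as a description, since these libraries share groups and depth. For Neat1 they were Cdk5r1 (r = 0.996), Sar1a (0.994) and Zbtb3 (0.993), out of 575 genes with r above 0.9. Cdk5r1, an activator of the kinase Cdk5, was at 3.77, 3.37 and 4.03 CPM in GSK-J4 and at 14.4, 11.1 and 9.50 CPM in LPS + GSK-J4, with replicate 1 highest in LPS + GSK-J4 as for Neat1. For Meg3 the closest were Dcbld2, Trim25 and Agfg1 (r = 0.999, 0.999 and 0.998), out of 979 such genes. Trim25, a ubiquitin ligase of the antiviral RIG-I pathway, was at 19.6, 20.4 and 18.0 CPM in GSK-J4 and at 64.8, 55.3 and 78.0 CPM in LPS + GSK-J4.

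Malat1 was followed most closely by Kdelc1, Rnf141 and Rbm25 (r = 0.986, 0.985 and 0.985), out of 190 genes with r above 0.9. Rbm25, a splicing regulator found in nuclear speckles, was at 36.6, 34.6 and 30.1 CPM in GSK-J4 and at 41.0, 39.7 and 27.7 CPM in LPS + GSK-J4. As with Malat1, LPS + GSK-J4 replicate 3 was the lowest of the 6 libraries. Kcnq1ot1 was followed by Prkd3, Ptp4a3 and Polr2b (r = 0.979, 0.973 and 0.966), and it had 43 genes with r above 0.9. In Prkd3, a protein kinase, LPS + GSK-J4 replicate 1 at 48.4 CPM was the highest library, as it was for Kcnq1ot1.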

How the data were processed

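rRNA-depleted, directional paired-end libraries of PM were sequenced on an Illumina HiSeq. Per the submitters' processing notes and the study's methods, the authors used CASAVA 1.8.2, trimmed reads with Trimmomatic 0.33, aligned them to mm10 with STAR 2.5.1 and tested with DESeq2. They deposited STAR's raw counts of fragments per gene, without normalization, in 3 columns (unstranded, same-strand and reverse-strand). The annotation used for counting is not given in the sources used here. Fragments that map to several places or genes are not counted by STAR, so near-identical copies are undercounted. The 4 tally lines were left out, and between 59.3 and 62.6% of uniquely mapped fragments lay outside annotated exons on the counted strand.

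The reverse-strand counts were used, since the opposite strand held from 0.966 to 1.38% of assigned fragments. They were fitted in R 4.3.3 with edgeR 4.0.16 and limma 3.58.1 (TMM, filterByExpr at 10 counts and a total of 15, robust quasi-likelihood test, no covariates), with Benjamini-Hochberg adjustment over 10133 genes. The common coefficient of variation between libraries was 0.133. The fit was also run on simulated data with known changes. That simulation held no group difference in Rn45s, so it does not bear on the choice of scaling. Groups and replicate numbers are those of the titles. Errors are SD over 3 libraries, and intervals are at 95%. Intervals of fold changes use the standard error implied by the test statistic and a normal quantile. They are approximate, and somewhat too narrow with so few libraries. For 3 libraries against 3 an exact permutation p cannot go below 0.1. The members, gene lists, markers and motifs were chosen with earlier results of these data known. Named were all members, the genes of each list that rose or fell (at most 6), the 3 genes most alike each member and the nearest counted gene on each side. A few other list genes are named for what they do. Results for some single genes are not reported here. Alternatives were unstranded counts, DESeq2 size factors, library totals without TMM, leaving out Rn45s, Mir6236 and Lars2, the DESeq2 1.42.0 Wald test, no filter, at least 10 counts in every library, stricter thresholds, a replicate block and leaving out each library. Tables, tests and plots were made with matplotlib 3.10.9, scipy 1.17.1, pandas 2.3.3 and numpy 2.4.6 in Python 3.11.15.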

Additional observations from a re-analysis of the deposited data

How the results depend on the processing

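Unstranded counts, DESeq2 size factors, the DESeq2 Wald test, both other filters on low counts and the removal of Rn45s, Mir6236 and Lars2 left Neat1 and Meg3 called and Malat1 and Kcnq1ot1 not called. With library totals without TMM, log2 fold changes were 0.33 for Neat1, 0.63 for Meg3, −0.47 for Malat1 and −0.51 for Kcnq1ot1, so that 0 members rose and 2 fell; over all genes 573 rose in place of 1386 and 5019 fell in place of 1004, and in the lists 2 genes rose in place of 7 and 35 fell in place of 4. At an adjusted p of at most 0.01, 853 genes rose and 553 fell, with 2 risen in the lists. With the limit of 1.5 on the log2 change as well, Neat1 at 0.89 and Meg3 at 1.20 were not called, 0 members rose, 299 genes rose and 82 fell, and in the lists 1 rose and 0 fell. By DESeq2 2 list genes rose. Without replicate 3 of both groups Malat1 was at 0.21.

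Over the 6 libraries left out in turn, the log2 fold change ranged from 0.78 to 0.97 for Neat1, from 1.14 to 1.26 for Meg3, from 0.0071 to 0.25 for Malat1 and from −0.13 to 0.16 for Kcnq1ot1. From 2 to 3 members rose and 0 fell. From 1001 to 1359 genes rose and from 658 to 1108 fell, the fewest without GSK-J4 replicate 2 (658) and without LPS + GSK-J4 replicate 2 (661). From 3 to 8 list genes rose and from 3 to 5 fell, with 4, 3 and 4 risen without GSK-J4 replicate 1, GSK-J4 replicate 2 and LPS + GSK-J4 replicate 1. The log2 ratio of Neat1 to Malat1 differed by 0.71 to 0.92.

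The replicate numbers were shared by the groups, and deviations of same-numbered libraries correlated at −0.01, 0.12 and 0.31 for replicates 1, 2 and 3. The value for the replicates numbered 3 was the highest of all pairs, and their pairs with other numbers were between −0.30 and −0.06. LPS + GSK-J4 replicate 1, however, correlated best with GSK-J4 replicate 2 (0.25), so the numbers were not taken as pairs in the main fit. With the replicate block, Neat1 was at 0.89, Meg3 at 1.19, Malat1 at 0.08 and Kcnq1ot1 at 0.05, with no member's call changed, 1751 genes rose and 1497 fell. The causes of these differences were not tested. With 66 and 101 Meg3 counts per group, depth limits Meg3 and Miat most.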
